A study of Homo sapiens with 6 samples.

Results

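The genes described here are 58 human genes of mitosis and the cell cycle, chosen by symbol from the names in a deposited exon annotation of U-87 MG cells, an established human malignant glioma line. All 58 were listed, among 13721 gene names, and each had at least 1 intron, as did 12462 names in all. The cells were grown in DMEM with serum and received for 72 h either vehicle (DMSO, 10 ul in 10 ml of medium, 3 libraries) or EPZ015666 at 10 uM (3 libraries), an inhibitor of the arginine methyltransferase PRMT5. Poly(A)-selected RNA was sequenced, and the authors built a single annotation of exon positions for both groups together. It holds 0 columns of values per library, so it gives structures and no expression level, no sequencing depth and no difference between the treated and control groups. Its positions run to 249139861 on chromosome 1, and the coordinates below are those of the file, on hg19. The sources used here do not say whether the 3 libraries of a group came from separate cultures.

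Cyclins bind cyclin-dependent kinases (CDKs) and switch them on at set points of the cell cycle. CDC25 phosphatases activate the mitotic CDK and the kinases WEE1 and PKMYT1 hold it back. The spindle checkpoint keeps the anaphase-promoting complex, a ubiquitin ligase, inactive until the kinetochores of all chromosomes are attached, after which securin and cyclin B are destroyed, separase cuts cohesin and the sister chromatids part. PRMT5 methylates spliceosomal Sm proteins, and introns that stay in otherwise spliced, polyadenylated nuclear RNA are called detained introns, which the title of the series names as its subject.

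The structures of these genes were uniform from the 5' end inward. An isoform here is a run of exon rows from the 5' to the 3' end of a gene, and an intron chain is its ordered set of introns. The 58 genes had 2214 exon rows and 146 isoform entries, which reduced to 102 distinct structures, 75 distinct intron chains and 913 distinct introns. Of the 58, 44 (75.9%) had 2 or more isoform entries, against 69.6% of all genes with introns. Many entries repeated each other, since the last isoform was written out a second time in 42 of the genes, against 59.6% of all genes. Among distinct structures, 34 genes had a single intron chain and a single 3' end, 15 had a single chain with several 3' ends, and 9 had several chains. No gene of the 58 had a second first exon, a second 5' start, a skipped internal exon, or an alternative donor or acceptor of an intron before the last. Each of these 4 counts was also 0 (0%) among the 12462 genes of the whole annotation, so these counts do not set the 58 genes apart from the rest of the file.

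**Figure D1:**
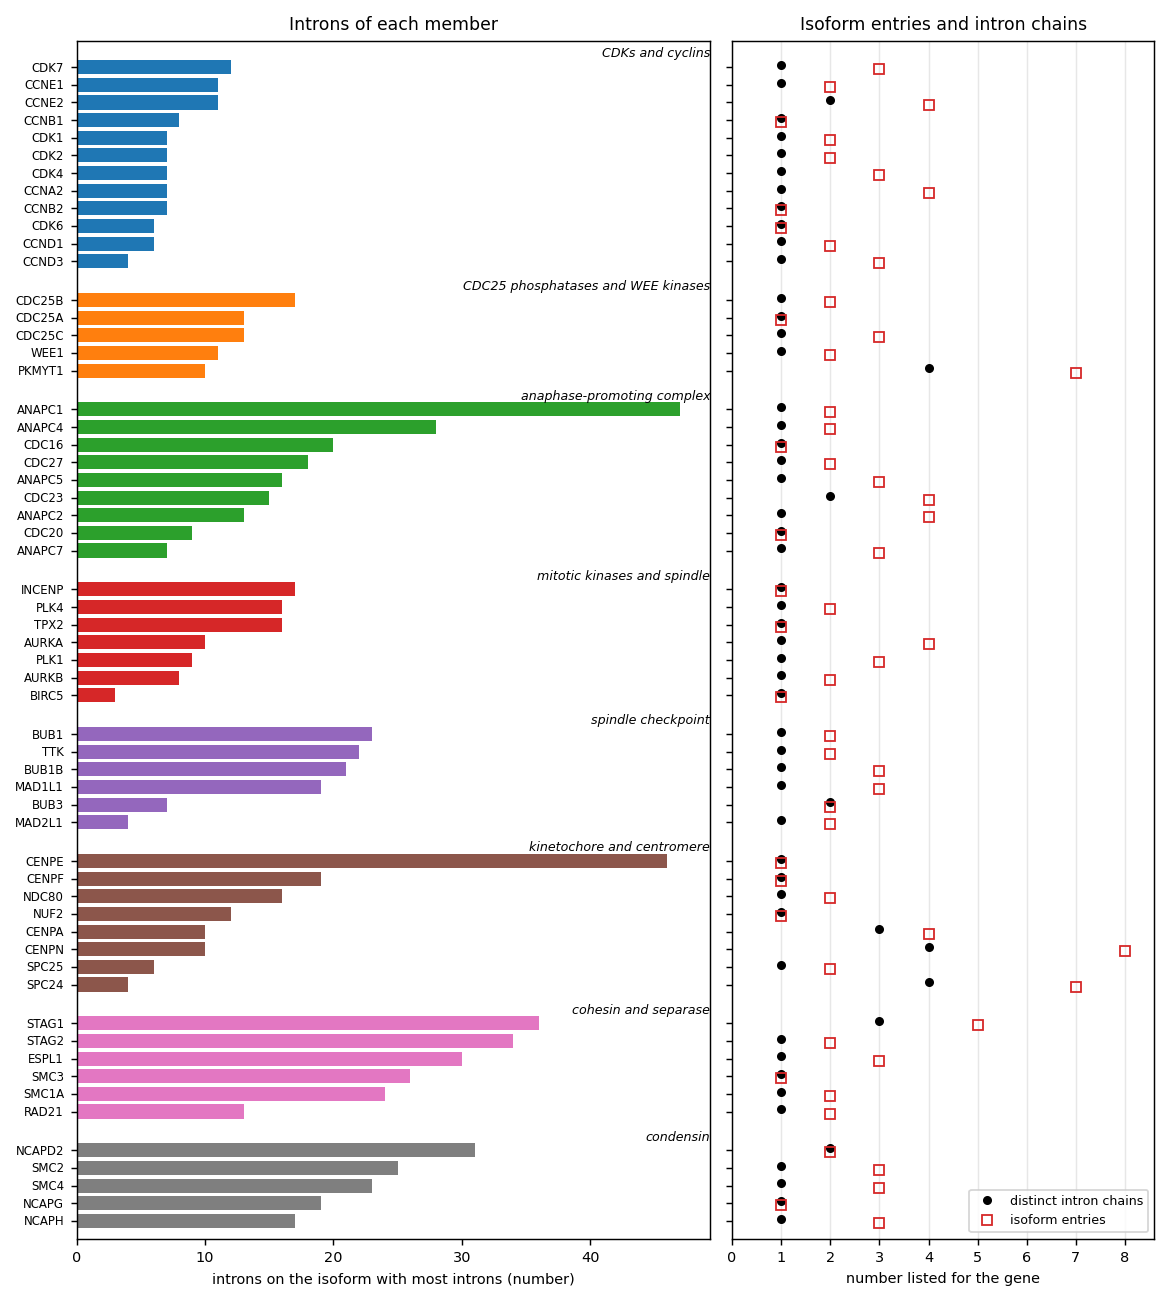
Introns on the isoform with most introns (bars, number per gene, left) and isoform entries and distinct intron chains (open squares and filled circles, number per gene, right) for the 58 genes, grouped by role. Intron number ran from 3 in BIRC5 to 47 in ANAPC1, while 49 genes had 1 chain and no gene had more than 4.

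All variation lay at the 3' end. In each of the 9 genes with several chains, every intron before the last one of a chain was shared with the isoform that has most introns, and this held for 2784 of 2784 genes with several chains in the file (100%). Final exons, counted by the acceptor (the 3' splice site that opens them), numbered 2 or more in 9 of the 58 genes (15.5%), against 22.3% of all genes. Several 3' ends were listed for 22 of the 58 (37.9%), against 35.1%. Genes with more introns had several final exons more often in the whole file, and these genes are rich in introns, with a median of 13 per gene (quartiles 8 and 19.75) against 8 (quartiles 5 and 14). Among genes with 1 to 4 introns, 1 of 4 members had several final exons, against 10.8% of all genes. With 5 to 9 introns it was 1 of 14 against 19.9%, with 10 to 19 introns 5 of 25 against 27.6%, and with 20 or more introns 2 of 15 against 36.8%. A second list of 98 cell cycle genes that are not members (replication licensing, E2F and RB genes, CDK inhibitors and further mitotic genes), of which 95 were listed and 93 had introns, had several final exons in 22 (23.7%). These are counts over genes chosen with earlier results of the data known, and no test was made on them.

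A separate 3' feature was the absence of the end of the coding region. The listed introns and exons were compared, by length and within the gene of the same name, with the transcripts of GENCODE release 29 (build GRCh38), never by position. In 9 of the 58 genes (15.5%) the listed structure stopped at an exon that is internal in the reference, with its full internal length, and the last reference exon was not listed. The same was found in 1701 of 11302 genes that could be compared (15.1%), and in 11 of 88 on the second list (12.5%). Every one of the 9 lacked exactly 1 reference exon after its listed end, and in every one that exon holds the end of the reading frame. The junction to the exon that is not listed is shown for each, from the GENCODE transcripts, because it marks where the annotation ends inside the coding sequence. Lower case gives the last 15 bases of the listed final exon and capitals give the first 15 bases of the reference exon that follows it.
BIRC5: gccaagaacaaaattGCAAAGGAAACCAAC
CDK6: aaagacctacttctgAAGTGTTTGACATTT
CDC20: tggctgaactcaaagGTCACACATCCCGGG
CDC25A: tttatgaaatgccagTCTTACTGTGAGCCC
NUF2: aaactgaagtcccagGAAATATTTCTAAAC
INCENP: ccacctgggcccgagGCACCCCGCTCAGCC
CENPF: agcagatcacaaaagGTCAAAGTTGCTCAG
SMC3: aagttcagaaataagGTTAGTCATATTGAT
CENPE: taggcctttgtccagAGGTGCAAAATGCAG

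The coding sequence beyond these junctions differed in size from gene to gene. BIRC5 encodes survivin, which with INCENP and AURKB forms the chromosomal passenger complex, and its listed structure (17:76210278-76212862) ended on a 118-base exon. The exon that follows in the reference transcript compared, BIRC5-201 with 5 exons, carries 87 of its 495 coding bases (17.6%). The share refers to that transcript alone. CDK6, the G1 kinase partner of D cyclins, ended on a 136-base exon (7:92247386-92247521) and lacked 144 of 978 coding bases (14.7%). CDC20, an activator of the anaphase-promoting complex, ended on a 118-base exon (1:43827866-43827983) and lacked 176 of 1497 (11.8%). NUF2, a subunit of the NDC80 kinetochore complex, lacked 132 of 1392 (9.48%), CDC25A lacked 138 of 1572 (8.78%) and INCENP, the scaffold of the passenger complex, lacked 212 of 2754 (7.7%). The shares were small in the large genes: 201 of 9342 coding bases in CENPF, a large kinetochore protein (2.15%), 69 of 3651 in the cohesin subunit SMC3 (1.89%), and 92 of 8103 in the kinetochore motor CENPE (1.14%). The bases beyond the junction in BIRC5, CDK6 and CDC20 thus took the highest shares, and those in CENPE the lowest. CENPE also lacked an internal reference exon of 291 bases, which its share leaves out.

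**Figure D2:**
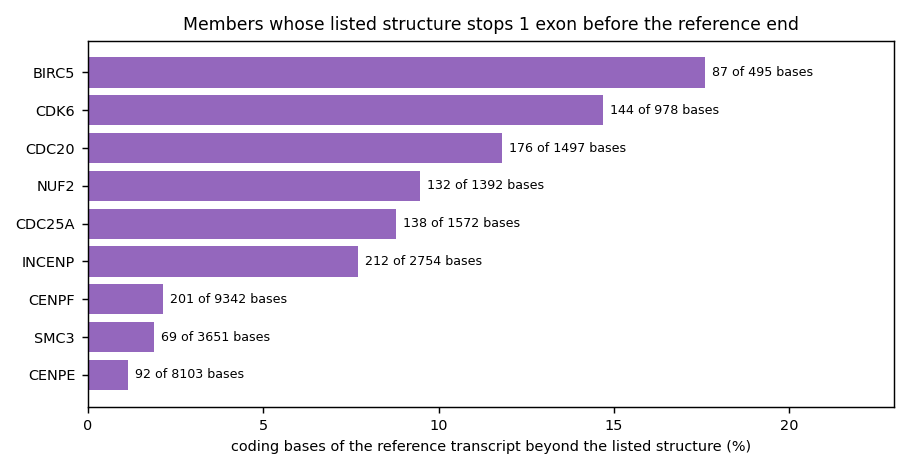
Coding bases of the reference transcript that lie beyond the listed structure, as a percent of all its coding bases (bars from 0; the counts are printed beside them), in the 9 genes that stop at an internal reference exon. The shares are 17.6%, 14.7% and 11.8% in BIRC5, CDK6 and CDC20, and 2.15% or less in CENPF, SMC3 and CENPE. An internal reference exon that CENPE also lacks is not included.

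These 9 genes shared a way of being written. In 10 of the 58 genes the only isoform ended with its final exon row given again, as in 20.5% of all genes with introns. Of these 10, 9 were those that stopped early. The tenth, cyclin B2 (CCNB2), ended on a 111-base exon after 7 introns. It was not counted because a coding reference transcript, CCNB2-205, also ends after that last intron. Here and in the whole file, a gene was counted only where no coding transcript of the gene ended after its last listed intron. Over the whole file, 1450 of 2204 genes written in this way stopped early (65.8%). Of the 42 members whose last isoform was written out again, 0 stopped early, as did 0 of 6868 such genes in the file. A single isoform with no overlapping rows was listed for CCNB1 (cyclin B1) and CDC16, and neither stopped early, against 1 of 945 such genes (0.106%). The condensin subunit NCAPG and the spindle assembly factor TPX2 each had 1 isoform with other overlapping rows. Their final exons took another acceptor, by 5 and 21 bases, when the earlier of the overlapping rows was kept in place of the later one. Both then met the rule for an early stop, 1 exon before the reference end, which brings the count to 11. With the later row kept they also ended short of the reference. After the last shared intron 1773 bases were listed for NCAPG against 4256 in the reference, and 1149 for TPX2 against 4402. They were not counted because their last introns, of 1621 and 870 bases, had no match in a coding transcript, which the rule requires.

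Among the 12 CDKs and cyclins, 1 had several final exons. Cyclin E2 (CCNE2), which with CDK2 drives entry into S phase, had an isoform that stopped after 8 introns on a 132-base final exon. Its 11-intron chain ended on final exons of 1253 and 1419 bases from a shared acceptor. The 3' end also varied in CCNA2 (cyclin A2), with final exons of 666, 778 and 1242 bases, and in CCND3 (cyclin D3), with 1173 and 3062 bases. CDK4, the other D cyclin kinase, had final exons of 386 and 890 bases. CDK7, the CDK-activating kinase, had 199 and 317. CDK1 and CDK2, the main mitotic and S phase kinases, each had a single structure with 7 introns, and CCNE1 a single one with 11. CCND1 (cyclin D1) had 1 structure with 6 introns, of which 2, of 133 and 1227 bases, lie inside what is a single final exon of 3357 bases in the reference.

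PKMYT1 had 4 final exons and was the only one of the 5 CDC25 and WEE family genes with more than 1. Its product phosphorylates CDK1 at the membrane. Final exons of 462, 424 and 273 bases ended at one position (16:3022793) after 7, 7 and 8 introns. The 10-intron chain ran on past it to final exons of 133, 136 and 162 bases. These lie beyond the end of the coding reference transcript PKMYT1-201. After the last shared intron that transcript has 274 bases and 0 introns, against 4711 bases and 2 introns listed. Neither of these 2 introns, of 1706 and 1372 bases, has a length found in a coding transcript of the gene. With transcripts that are not coding included, the 1372-base length is found in the reference gene and the 1706-base length is not. Whether this stretch belongs to PKMYT1 was not tested. The 424-base final exon ran through the 73-base intron that precedes the 273-base one, so that this intron was listed both as spliced and as part of an exon. An intron is called spanned here where a single exon of another structure runs from the start of the exon before it to the end of the exon after it. Members with 1 or more numbered 4 (6.9%), against 4.18% of all genes: PKMYT1, SPC24, CENPN and STAG1. CDC25C, a mitotic CDK1 activator, had final exons of 268 and 576 bases in a single chain of 13 introns. WEE1 and CDC25B had 1 structure each.

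Of the 9 genes of the anaphase-promoting complex and its activator, 1 had several final exons. CDC23, a subunit with tetratricopeptide repeats, had an isoform of 2 introns that ended on an 813-base exon (5:137541561-137542373). Its full chain had 15 introns and ended on 1434 or 1498 bases. The large scaffold subunit ANAPC1 had the most introns of the 58 genes, 47 over 116524 bases, and a single structure. The cullin subunit ANAPC2 had 3 ends from one acceptor, with final exons of 370, 4225 and 4296 bases. ANAPC5 had 334 and 359 bases and ANAPC7 had 855 and 1433. ANAPC4, CDC27 and CDC16 had a single structure each.

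None of the 7 mitotic kinase and spindle genes had a second final exon. AURKA, the centrosomal Aurora kinase, had final exons of 951, 1678 and 9629 bases from a single acceptor, a span of 8678 bases that was the widest among the 23 acceptors with several ends in 20 of the genes. PLK1, a kinase of mitotic entry and exit, had 468 and 508 bases. AURKB, the Aurora kinase of the passenger complex, and PLK4, the kinase of centriole duplication, had 1 structure each.

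BUB3 was the only spindle checkpoint gene of 6 with several final exons. It encodes the adaptor that brings BUB1 and BUBR1 to kinetochores. Its final exons of 1546 and 319 bases opened at different acceptors after 7 introns and shared one 3' end (10:124924881). Its first structure therefore held, as exon, 1227 bases that the other removed as the end of its last intron. Where the earlier of 2 overlapping exon rows is kept in place of the later, BUB3 has only 1 final exon and 1 chain, and the genes with several final exons number 8. The other members of the group kept one chain, with 23 introns in the kinase BUB1, 22 in TTK (MPS1), 21 in BUB1B (BUBR1), 19 in MAD1L1 (MAD1) and 4 in MAD2L1 (MAD2). MAD1L1 had ends 16 bases apart.

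Kinetochore and centromere genes held 3 of the 9 genes with several chains, and SPC24 and CENPN had 4 chains each, as PKMYT1 did. SPC24, which with SPC25 forms the inner end of the NDC80 complex, had 4 final exon acceptors with only 4 introns in its longest chain (19:11256171-11266484). The first 2 acceptors gave final exons of 518 bases after 2 introns and 295 bases after 3, with a common end. The 118-base intron between them was spanned by the 518-base exon. Each of the other acceptors had ends 429 bases apart, with final exons of 1366 and 1795 bases or of 507 and 936 bases. CENPA, the histone H3 variant of centromeres, had 6-intron chains that ended on 2998 and 511 bases at one position (2:27004099) and a chain of 10 introns that ended on 782 bases. Of its 7 introns without a length in the CENPA reference gene, 5 (248, 695, 720, 1559 and 9824 bases) equal introns of SLC35F6, a gene on the same chromosome whose name is not listed in the file, and the other 2 were 73 and 2560 bases. These 5 were introns 1 to 5 of the 10-intron chain, upstream of every final exon listed for CENPA. The 6-intron chains therefore held no intron with a CENPA reference length, and without CENPA the genes with several final exons number 8. Whether RNA of 1 gene runs through both was not tested. SPC25, NDC80, NUF2, CENPE and CENPF each had 1 structure.

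CENPN, which binds CENPA nucleosomes, had the most isoform entries of the 58 genes, 8, in 7 distinct structures and 4 chains. The first 6 of these structures differed only within a short stretch after the sixth intron. A final exon of 278 or 289 bases (16:81056202-81056479 or to 81056490) was also listed with a 28-base gap, leaving final exons of 148 or 159 bases. A 56-base gap with the same left edge left final exons of 120 or 131 bases. Every one of the 3 forms thus had the same pair of ends, 11 bases apart. The longest chain had 10 introns and a final exon of 2917 bases. Neither gap had a length found in the reference gene, and whether such gaps are spliced introns was not tested.

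**Figure D3:**
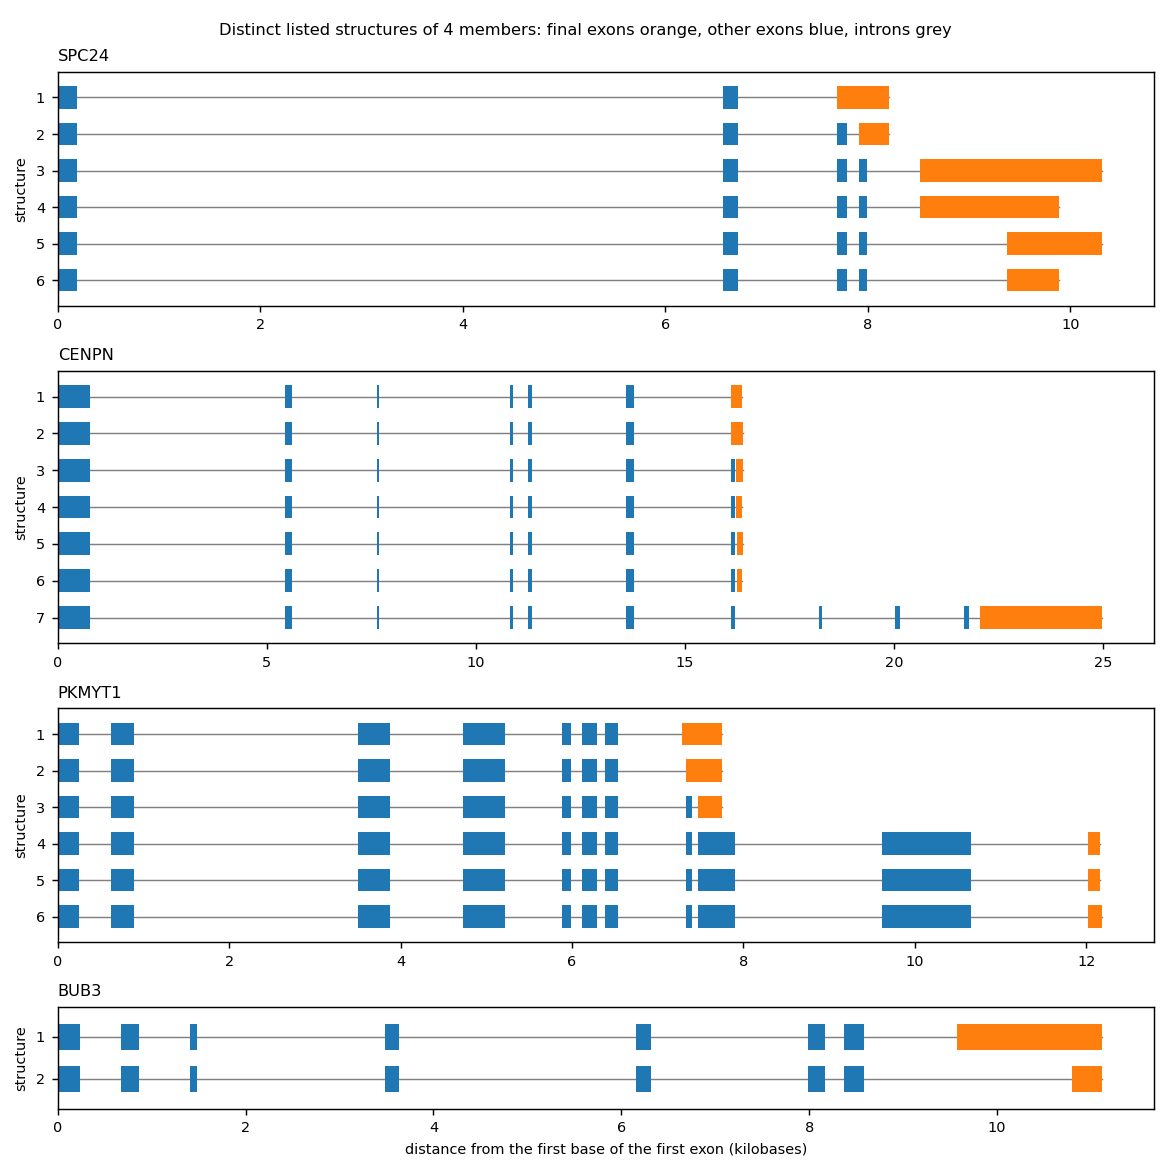
Distinct listed structures of SPC24, CENPN, PKMYT1 and BUB3, drawn to scale by distance in kilobases from the first base of the first exon (x axis), with 1 structure per row: final exons in orange, other exons in blue, introns as grey lines. In each gene the structures share their exons from the left and differ in where the final exon opens or ends; the BUB3 pair differs only where the later of overlapping exon rows is kept.

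STAG1 was the only one of the 6 cohesin and separase genes with several final exons. It encodes a subunit of cohesin, as does STAG2. A final exon of 3375 bases after 8 introns and one of 373 bases after 9 introns shared their 3' end (3:136236885), and the 2797-base intron between them was spanned. The full chain of 36 introns covered 422234 bases, the longest span of the 58 genes, and ended on 8108 bases. ESPL1 (separase) had ends 161 bases apart. STAG2, SMC1A and RAD21 had 1 structure each.

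In the condensin group, NCAPD2 had 2 acceptors for its final exon, 12 bases apart (12:6640493 and 12:6640505), with one end (12:6641121). The final exons were 629 and 617 bases long, and 83 bases of the final exon are coding in the reference. The start of the longer exon is shown from the GENCODE transcript because the whole difference lies in it, with the 12 bases that the shorter exon lacks in capitals.
NCAPD2: ATCTTTCAGCAGagatgacagaagacgaga
The 12 bases are a multiple of 3, and they end in CAG. SMC2 and SMC4, the paired ATPase arms of condensin, had a single chain each. Final exons were 514 and 2279 bases in SMC2 and 334 and 1297 bases in SMC4. NCAPH, the subunit that bridges them, had 527 and 554.

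Introns of 100 bases or less were listed in 33 of the 58 genes (56.9%), against 28.3% of all genes. Counted over introns in place of genes, the shares were closer, with 66 of 913 (7.23%) against 5.23% of 138855. By intron number, 0 of 4 members with 1 to 4 introns had one, against 8.07% of all genes. With 5 to 9 introns it was 35.7% against 24.1%, with 10 to 19 introns 56% against 36.9%, and with 20 or more 93.3% against 55.2%. The second list of cell cycle genes had such an intron in 35 of 93 (37.6%). NCAPD2 had 8, from 71 to 96 bases, and ANAPC4 and SMC1A had 5 each. STAG2, CDC20, CDC23, CDC16 and BUB1 had 3 each.

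Introns of 60 bases or less were rarer, with 6 in 5 of the 58 genes (8.62%), against 1.12% of all genes and 3.23% of the second list. They were 23 bases in CDC25B (20:3778288-3778310), 28 and 56 bases in CENPN, 40 bases in BUB1B (15:40468638-40468677), 44 bases in SMC2 (9:106858385-106858428) and 55 bases in CDC16 (13:115010310-115010364). No intron of these 6 lengths is in the reference gene. The other 60 introns of at most 100 bases were 71 bases or longer, with none from 57 to 70, and 57 of those 60 had a length found in the reference gene. The exceptions were 73 bases in CENPA, 75 in BUB1 and 86 in CDC16.

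**Figure D4:**
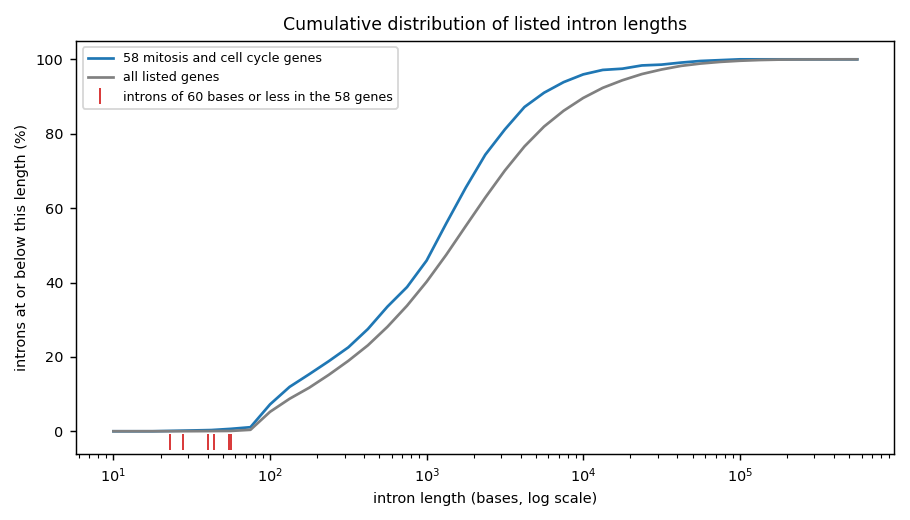
Cumulative share of distinct introns (y axis, percent) at or below a given length (x axis, bases, log scale) in the 58 genes (blue) and in all listed genes (grey), with the members' introns of 60 bases or less as red ticks. The blue line lies above the grey one through most of the range, with medians of 1121 and 1471 bases, and the 6 ticks lie below the point near 71 bases where both lines begin to climb.

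Of these 6 shortest introns, 3 stood beside an exon that the reference transcript does not have. In BUB1B an added exon of 54 bases ended 40 bases before the next reference exon. In SMC2 an added exon of 93 bases ended 44 bases before it, and in CDC16 one of 84 bases ended 55 bases before it. In each of the 3 genes the added exon and its flanking introns filled exactly one reference intron, of 5795, 595 and 900 bases. The lengths of these 3 added exons are multiples of 3, which was not general. The members had 15 added exons inside reference introns, and the only other one with such a length was that of CDK7, 93 bases. Those in CDK4, CDC25B, ANAPC7, MAD1L1, TTK, WEE1, CENPF and STAG1 were not multiples of 3. In CDC25B the 23-base intron instead divided a reference exon of 128 bases into 19 and 86 bases. The bases of these introns and exons were not read, because the reference genome used here is of another build than the file.

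Over all introns of the 58 genes, 861 of 913 (94.3%) had a length found in some transcript, coding or not, of the gene of the same name. That held for every listed intron in 33 of the 58 genes (56.9%), against 53.3% of 11302 genes compared. An unmatched length need not mean another structure. All 6 unmatched introns of SMC1A lay between exons of reference length, as with 1321 bases against 1322 and 2276 against 2257. The same was seen in MAD1L1, with 20730 against 20731. Whether the builds or the gene models account for these differences was not tested. On the isoform with most introns alone, and with coding transcripts alone, every intron length was found for 34 (58.6%), against 48.9%. Added exons inside reference introns numbered 15 in 12 of the 58 genes (20.7%), against 23.5% of the genes compared and 29.5% of the second list. For 3 of these, in CDK4 (160 bases), CDC25B (79) and TTK (71), both flanking introns have lengths found in another transcript of the gene. For 4 exons 1 flanking intron did, and for 8 neither did. The last kind included 93 bases in CDK7, 103 bases in ANAPC7 and 10022 bases in MAD1L1, as well as 98 and 37930 bases in STAG1. The 37930-base exon (3:136390479-136428408) was the longest internal exon of the 58 genes. Internal exons of 1000 bases or more were listed in 7 members (12.1%), against 20.8% of all genes. They included 3404 and 2844 bases in CENPF, 5576 bases in CENPA, which follows a 2560-base intron of no CENPA reference length, and 1062 bases in ESPL1.

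Some listed exons joined or divided reference exons. SMC3 had a 1893-base exon (10:112356156-112358048) equal in length to 2 reference exons of 153 and 152 bases with the 1588-base intron between them. BUB1 had 2 exons of this kind, of 329 and 431 bases, which take in reference introns of 91 and 101 bases. The final exon of BUB1B, 3641 bases, equals a reference stretch that contains 2 introns. In the other direction, PLK4 had a 621-base intron inside a 1021-base reference exon, ANAPC2 a 108-base intron inside one of 623 bases, and BUB1 a 75-base intron inside one of 239. CENPE joined exons of 159 and 99 bases where the reference transcript has a 291-base exon between them. ANAPC7 was listed with 7 introns and lacked 5 that the reference has before the first shared one.

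Long introns were less common than in the whole file. Introns of 10000 bases or more were found in 14 of the 58 genes (24.1%), against 46.3% of all genes, and made up 4.05% of the members' introns against 10.4%. The first intron was the longest in 7 genes (12.1%), against 37.6%. On the second list of cell cycle genes these shares were 37.6% (35 of 93) for introns of 10000 bases or more and 26.9% (25 of 93) for the first intron, also below those of the whole file. The median length of the first intron was 1117 bases in the 58 genes and 2984 in all genes. First introns were taken as listed. The 7 genes include CENPA, whose first intron of 9824 bases equals one of SLC35F6, and ANAPC7, which lacks 5 reference introns before the first shared one. The lower shares held in each class of intron number. For 10000 bases or more they were 0% against 28.1%, 14.3% against 42%, 24% against 55.4% and 40% against 68.8%, from the class of fewest introns to that of most. For the first intron they were 25% against 54.5%, 7.14% against 33%, 16% against 30.4% and 6.67% against 33.3%. The longest introns were 81971 and 79813 bases in MAD1L1, which binds MAD2 at unattached kinetochores, followed by the first intron of STAG2, 59510 bases. CDK6 had 4 introns between 48339 and 58259 bases in a gene of only 6 introns.

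Internal exons were of ordinary size. Their median was 126 bases (quartiles 93 and 163.5) in the 58 genes and 123 (quartiles 88 and 168) in all genes. A length that is a multiple of 3 was found for 39.6% of 848 internal exons, against 39.1%. The smallest were 12 bases in INCENP, 19 in CDC25B and 27 in ANAPC4. The members with the fewest introns were BIRC5 with 3, and CCND3, MAD2L1 and SPC24 with 4. After ANAPC1, the most were in CENPE with 46 and STAG1 with 36.

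Related genes among the 58 were compared by the lengths of their internal exons in order, over 17 pairs. STAG1 and STAG2 had 25 equal lengths, with an unbroken run of 14 exons. CCNE1 and CCNE2 shared a run of 6 exons, of 136, 147, 96, 135, 112 and 158 bases. The Aurora kinases AURKA and AURKB shared 5, of 55, 192, 139, 149 and 175 bases. CDK4 and CDK6 shared 4, of 136, 168, 110 and 51 bases, and the next exon is 136 bases in both. That exon is internal in CDK4 and is the final listed exon of CDK6, which stops there. CDC25B and CDC25C shared a run of 63, 99, 134 and 112 bases, and 112 bases is also the length of the final listed exon of CDC25A. CCNB1 and CCNB2 shared 159, 237 and 141 bases followed by 111, which is internal in CCNB1 and final in CCNB2. No internal exon lengths were shared in order by CDK1 and CDK2 or by PLK1 and PLK4.

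**Figure D5:**
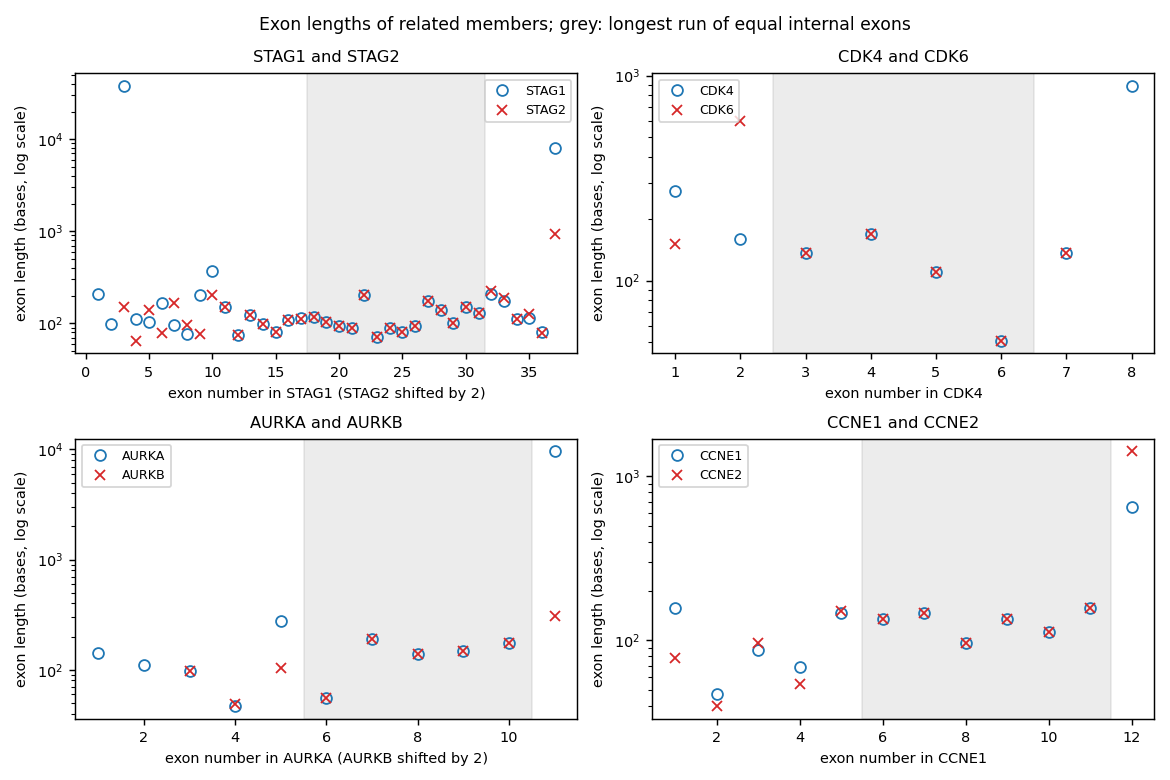
Exon lengths (y axis, bases, log scale) by exon number (x axis) for 4 pairs of related genes, with the second gene shifted where stated so that the longest run of equal internal exons (grey) lines up. Points coincide through runs of 14 exons in STAG1 and STAG2, 4 in CDK4 and CDK6, 5 in AURKA and AURKB, and 6 in CCNE1 and CCNE2. The last exons of each pair differ in length. The 136-base exon on which CDK6 stops coincides with an internal exon of CDK4.

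Some exons of the 58 genes overlapped exons listed for a neighbour. On the opposite strand, the final exon of CDK4 shared 509 bases with TSPAN31, that of CCNA2 253 with EXOSC9, that of CCND1 227 with ORAOV1, that of CCNE2 167 with INTS8 and that of CDK7 119 with CCDC125. CDC20 shared 1421 bases with ELOVL1, the whole length of its listed exons. PKMYT1 shared 158 bases with PAQR4 in final and other exons, and CENPN shared 164 with CMC2 in exons other than the final ones. The final exon of BUB1B shared 717 bases with PAK6 on the same strand. The sources used here do not say whether reads were assigned by strand, and the part of these overlaps in the listed ends was not tested.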

How the data were processed

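RNA from 6 U-87 MG libraries (2 groups of 3) was sequenced by the authors. RSEM, DESeq 1.10.1, STAR 2.4.1d, bedtools 2.20.1 and Bowtie 1.0.1 are listed without a role in the submitters' processing notes, as are the builds GRCh37 and hg19. The deposited file gives exon positions in bases, and no other measure was used. The authors' choice of exons was not given in the sources used here.

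From 382567 exon rows, 76 whose end precedes their start were dropped. A new isoform, of 31659 in all, began where the parent name changed or the position moved back along the strand. Where consecutive exons overlapped (10093 cases), the later was kept. Python 3.11.15 with numpy 2.4.6 and matplotlib 3.10.9 was used, and the parsing was tested on simulated structures. Lengths were compared exactly with coding transcripts of GENCODE release 29. Every member could be named, with full structures for those with several final exons, spanned introns or introns of 100 bases or less. The members and lists were chosen with earlier results of these data known. No test was run. Alternatives changed the overlap rule, the grouping, the limits and the length tolerance.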

Additional observations from a re-analysis of the deposited data

How the results depend on the processing

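The counts of several final exons depended on how an end was defined. Counted by acceptor and 3' end together, 24 members had 2 or more, and 5 had 3 or more acceptors, against 9. For short introns, 2 members had one at a limit of 30 bases, 5 at 60 and 15 at 80, against 33 at 100 and 44 at 150. Keeping the earlier of overlapping exons gave 8 members with several chains and 8 with several final exons, BUB3 being the one lost, and grouping by the parent name gave 10. With the isoform with most introns only, 31 members had a short intron. On the isoform with most introns, every intron length was found in coding reference transcripts for 34 members, for 35 within 3 bases and for 36 with all transcript types. Over all listed isoforms it was 31, and 33 with all transcript types. The comparisons with all isoforms or transcript types, and the earlier exon for early stops (11 against 9), were chosen after seeing the data. First exons, skipped exons and spanned introns gave the same counts under the alternatives run. No paired analysis was possible because the annotation has no columns of libraries, and no replicate could be left out.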

Other observations

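On the second list of cell cycle genes, 11 of 88 stopped early, among them the replicative helicase subunits MCM2, MCM4 and MCM5, the licensing inhibitor GMNN and the retinoblastoma gene RB1. Spanned introns were listed in 2 of 93 (2.15%). Of the 98 names, 3 (CDKN1C, CDKN2C and CCND2) were not among the names of the annotation.

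The outer edges of the structures were not equally exact on both sides. For exons at the left end of a gene on the chromosome whose adjoining intron is in the reference, 16 of 49 in the members were 1 base shorter than a reference exon and 1 was equal in length. At the right end, 0 of 40 were 1 base shorter and 17 were equal. In the other genes 2536 of 7379 were 1 base shorter at the left and 154 equal, against 56 and 2288 of 6476 at the right. Lengths of final exons on the reverse strand and of first exons on the forward strand are given as listed.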
